A study of Mus musculus with 2 samples.

Results

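Scavenger and mannose receptors are the 8 genes Cd36, Msr1, Colec12, Mrc1, Cd163, Scarb1, Scarb2 and Lrp1, taken by symbol from 16614 listed genes, and all 8 were found. The set was put together because Cd36 was lower and Colec12 higher in the knockout library, so the difference between the libraries helped to choose it. Every fold and count over the 8 below is therefore a description, without a test. The series asked how FoxO3, a forkhead transcription factor, bears on the formation of osteoclasts, the cells that resorb bone. It holds 1 library of Foxo3 knockout (KO) cells and 1 of wild-type (WT) cells, both from C57BL/6 mice. In both, cells flushed from femur and tibia were cultured for 3 days in M-CSF, a macrophage growth factor, before 2 days of RANKL, which turns macrophages towards osteoclasts. The sources used here do not say how Foxo3 was deleted, nor give the age, sex or number of the mice. With 1 library per genotype no value has a replicate error, and the differences are those of 2 libraries and need not be those of the genotypes.

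Scavenger receptors are membrane proteins that take up modified lipoproteins, dying cells, microbes and cell debris, and macrophages carry several structural classes of them. Class A receptors (Msr1 and Colec12) have a collagen-like stalk, and class B receptors (Cd36, Scarb1 and Scarb2) form a loop anchored in the membrane at both ends and carry lipids. The mannose receptor gene Mrc1 encodes a C-type lectin that binds sugars of microbes and of the body's own glycoproteins, Cd163 encodes the receptor for haptoglobin-haemoglobin complexes, and Lrp1 encodes a large endocytic receptor of the LDL receptor family.

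Promoter windows from the RefSeq table (GRCm38.p6) were used for 5 receptors, Cd36, Mrc1, Cd163, Scarb2 and Lrp1. All 5 were lower in the KO library. Colec12, which was higher, was left out of this search. Scarb1, slightly higher, and Msr1, lower, had no window there. Nothing is therefore read from the shared direction of the 5. The 250 bases before the start are shown for the 3 of them with the lowest ratios, to let their starts be compared. Capitals mark matches, on either strand, to any of 9 short motifs given after the sequences.
Cd36, chr5:17835897-17836146, minus strand: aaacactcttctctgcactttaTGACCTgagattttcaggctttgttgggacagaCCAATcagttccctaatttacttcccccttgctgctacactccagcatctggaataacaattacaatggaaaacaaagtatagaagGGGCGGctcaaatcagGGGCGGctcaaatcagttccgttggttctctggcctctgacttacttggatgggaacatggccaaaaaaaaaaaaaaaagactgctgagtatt
Mrc1, chr2:14229164-14229413, plus strand: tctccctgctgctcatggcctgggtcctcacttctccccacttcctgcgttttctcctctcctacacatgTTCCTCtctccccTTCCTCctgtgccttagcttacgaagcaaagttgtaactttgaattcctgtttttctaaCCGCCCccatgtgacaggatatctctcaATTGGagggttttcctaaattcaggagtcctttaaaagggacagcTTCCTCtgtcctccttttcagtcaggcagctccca
Lrp1, chr10:127621149-127621398, minus strand: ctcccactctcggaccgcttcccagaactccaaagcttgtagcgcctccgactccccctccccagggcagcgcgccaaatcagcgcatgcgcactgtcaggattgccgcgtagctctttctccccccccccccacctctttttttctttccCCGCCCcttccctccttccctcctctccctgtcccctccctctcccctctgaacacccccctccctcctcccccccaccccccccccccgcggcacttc

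The FoxO motif GTAAACA was found in 0 of these 5 windows and in 3.17% of 32851 windows of the same length. The AP-1 motif TGANTCA, the C/EBP motif TTGCNNAA, the TATA motif TATAAA and the E-box CACGTG also had no match in the 5, against 6.75%, 9.56%, 12.4% and 6.02% of all windows. The PU.1 core GAGGAA, in 23.3% of all windows, was found in the Mrc1 window alone, at 3 places. The nuclear receptor half-site AGGTCA, in 14% of all windows, was found once, in Cd36. The Cd36 window also held the CCAAT motif CCAAT, found in 33.8% of all windows, and 2 GC boxes, GGGCGG, found in 32.7%, and both motifs also occurred in others of the 5. The GC boxes of Cd36 lie in a direct repeat of 16 bases, copied without a gap. The windows differed in base composition, with a GC content of 43.2% in Cd36, 49.6% in Mrc1, 36.8% in Cd163, 65.6% in Scarb2 and 67.2% in Lrp1, against a median of 52.4% over all windows. GENCODE gives Cd36 5 coding transcripts with 5 different starts, the nearest 179 bases from the start used here, so this window shows 1 of several starts. A match or its absence describes the letters of these windows only.

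Values are FPKM, a read density corrected for transcript length and library size, which allows levels of different genes to be set side by side. The log2 ratio compares KO with WT after a pseudocount of 1 FPKM was added to both values, so a negative one means lower in the KO library, and it understates differences of low genes. Genes at 1 FPKM or more in either library count as measured: 10003 genes, all 8 receptors among them. A difference was called at 2-fold on this scale, in place of a test. Foxo3 itself was at 0.548 FPKM in the KO library and 10.3 FPKM in the WT library. The KO library was the deeper, 1.40 times by the most common ratio between the libraries among genes low in both. The worth of 1 read put the totals near 37400000 reads in the KO and 26100000 in the WT library. The sum over all genes was 540601 FPKM in the KO and 530701 FPKM in the WT library. The macrophage genes Csf1r (694.6 and 697.1 FPKM in the KO and WT library), Emr1 (153.1 and 184.6 FPKM) and Cd68 were present alongside the osteoclast genes Acp5 and Ctsk, so the labelled macrophages had many osteoclast transcripts. Csf1r and Emr1 were singled out after their values were seen.

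Of the 8 receptors, 6 were lower and 2 higher in the KO library, against 42.4% lower and 57.6% higher among all measured genes. At 2-fold, Cd36 alone was lower and 0 were higher, where 0.2% of measured genes were lower and 0.12% higher. At 1.5-fold, Cd36 and Mrc1 were lower and Colec12 higher, against 0.94% and 0.41% of measured genes. The median log2 ratio of the 8 was -0.34, and that of all measured genes was 0.03. The 6 receptors other than Cd36 and Colec12 had the same median, -0.34, with 5 of them lower. Since the set was chosen on this contrast, nothing is read from these counts.

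**Figure D1:**
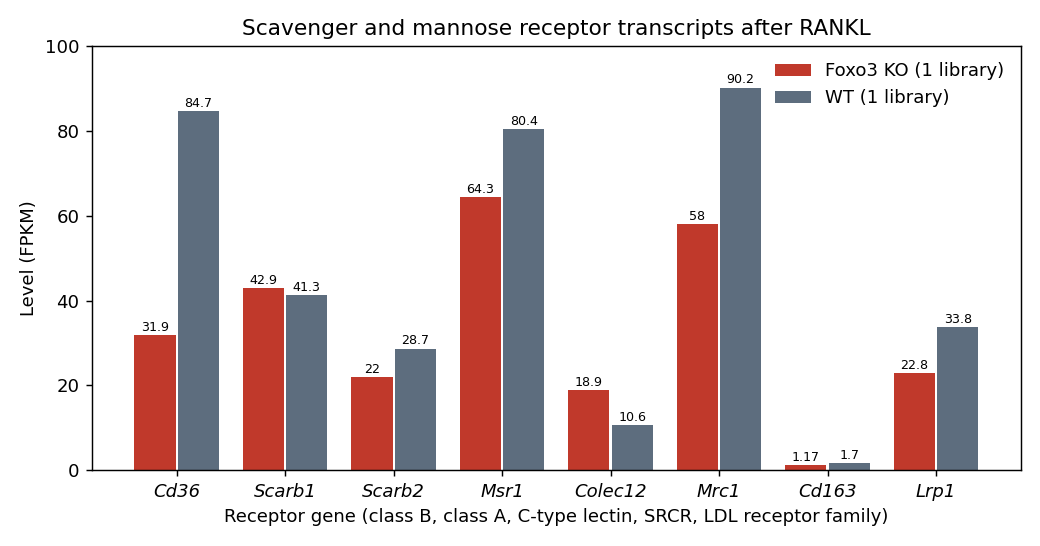
Level of each receptor gene in FPKM (vertical axis, linear, from 0) in the Foxo3 KO and the WT library, with 1 bar per library and no error bars because each genotype has 1 library. Cd36 stands at 31.9 FPKM in the KO and 84.7 FPKM in the WT library, Colec12 at 18.9 and 10.6 FPKM, and Scarb1 is nearly level.

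Among the class B receptors, Cd36, which takes up long-chain fatty acids and oxidised LDL, fell furthest of the 8. The gene lies on the minus strand of chromosome 5, from 17781690 to 17888801 (mm10). Its level was 31.9 FPKM in the KO library and 84.7 FPKM in the WT library, 2.65-fold lower, with a log2 ratio of -1.38. Only 5 of the 10003 measured genes had a lower ratio. In order of level among all listed genes, Cd36 was number 2718 in the KO and number 977 in the WT library. By transcript length and the worth of 1 read, about 3058 to 4054 reads lay behind the KO value and 5676 to 7524 behind the WT value, so the ratio does not rest on few reads.

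Scarb1, the HDL receptor SR-B1, which exchanges cholesterol esters with lipoproteins, did not share that difference. It lies on chromosome 5 from 125277087 to 125341094 and stood at 42.9 FPKM in the KO and 41.3 FPKM in the WT library. Its log2 ratio of 0.05 was close to the median of all measured genes. Scarb2, on chromosome 5 from 92441314 to 92506833, encodes LIMP-2, a protein of the lysosomal membrane that carries glucocerebrosidase to lysosomes. It stood at 22.0 FPKM in the KO and 28.7 FPKM in the WT library, with a log2 ratio of -0.37. The order of the class B receptors thus differed between the libraries: Scarb1, Cd36, Scarb2 from high to low in the KO library, and Cd36, Scarb1, Scarb2 in the WT library. Cd36 had 0.744 times the level of Scarb1 in the KO library and 2.05 times its level in the WT library.

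The class A receptors went opposite ways. Colec12, scavenger receptor C-type lectin or collectin-12, lies on chromosome 18 and stood at 18.9 FPKM in the KO and 10.6 FPKM in the WT library. That is 1.78-fold higher, with a log2 ratio of 0.78, which stays below 2-fold. Only 15 measured genes had a higher ratio. Msr1, the macrophage scavenger receptor that binds acetylated and oxidised LDL, lies on chromosome 8 from 39581685 to 39642673. It stood at 64.3 FPKM in the KO and 80.4 FPKM in the WT library, with a log2 ratio of -0.32. Colec12 was the lesser of the pair in both libraries, at 0.293 times the level of Msr1 in the KO and 0.131 times in the WT library.

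Mrc1, on chromosome 2 from 14229392 to 14332057, was the most abundant of the 8 in the WT library and came second to Msr1 in the KO library. It stood at 58.0 FPKM in the KO and 90.2 FPKM in the WT library, 1.55-fold lower, with a log2 ratio of -0.63. Of all measured genes, 0.770% had a lower ratio. Mrc1 was at 0.903 times the level of Msr1 in the KO library and 1.12 times in the WT library.

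Lrp1, on chromosome 10 from 127538161 to 127621148, stood at 22.8 FPKM in the KO and 33.8 FPKM in the WT library. Its log2 ratio was -0.55, and 1.17% of measured genes had a lower one. Foxo3 lies on the same chromosome, from 42181841 to 42276755. Cd163, on chromosome 6 from 124304656 to 124330527, was scarce in both libraries, at 1.17 FPKM in the KO and 1.70 FPKM in the WT library. Without a pseudocount its log2 ratio was -0.54, and with it -0.32. About 192 to 194 reads lay behind the KO value and 196 to 197 behind the WT value, which alone gives the ratio a counting error near 10.2%, and counting error is only part of the error. No exon of the 8 genes overlaps an exon of another gene in GENCODE M21, on either strand.

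**Figure D2:**
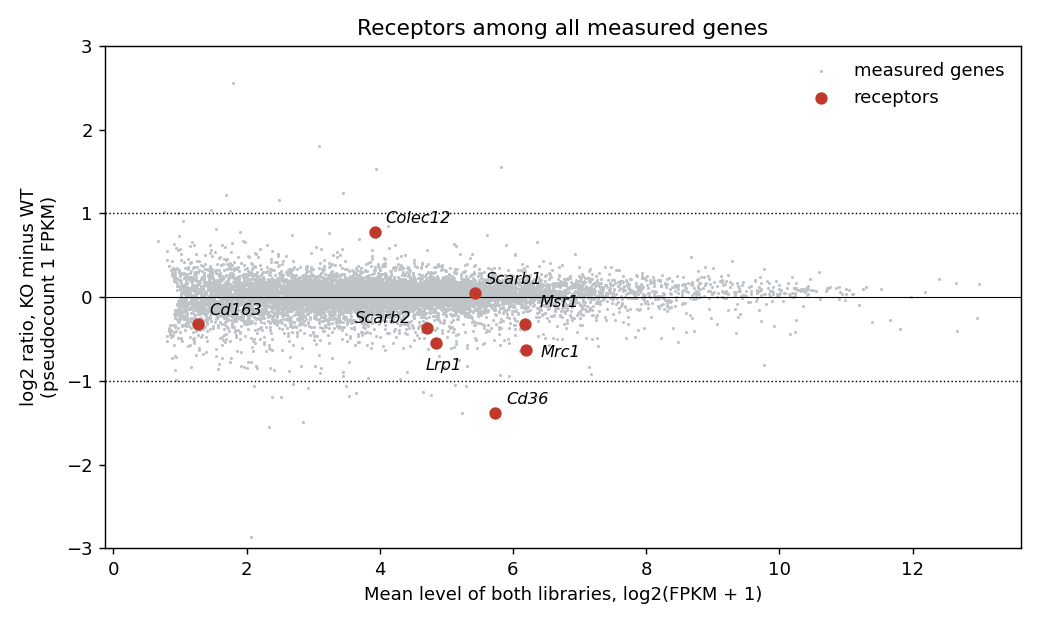
Log2 ratio of KO minus WT (vertical axis) against the mean level of both libraries in log2(FPKM + 1) (horizontal axis), with grey points for measured genes, red points for the 8 receptors and dotted lines at 2-fold. Cd36 (-1.38) lies below the lower line, Colec12 (0.78) stands above the cloud, and 2 genes beyond the plotted range are not drawn.

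Summed over the 8 receptors, the level was 261.9 FPKM in the KO library and 371.2 FPKM in the WT library, 70.6% of the WT sum. Cd36 alone made up 48.3% of this net difference, and without it the sum was 230.0 FPKM in the KO and 286.5 FPKM in the WT library. The make-up of the sum differed too. Cd36 held 12.2% of it in the KO and 22.8% in the WT library, and Colec12 held 7.20% and 2.85%. Scarb1, with an almost equal level, held 16.4% of the smaller KO sum and 11.1% of the WT sum.

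**Figure D3:**
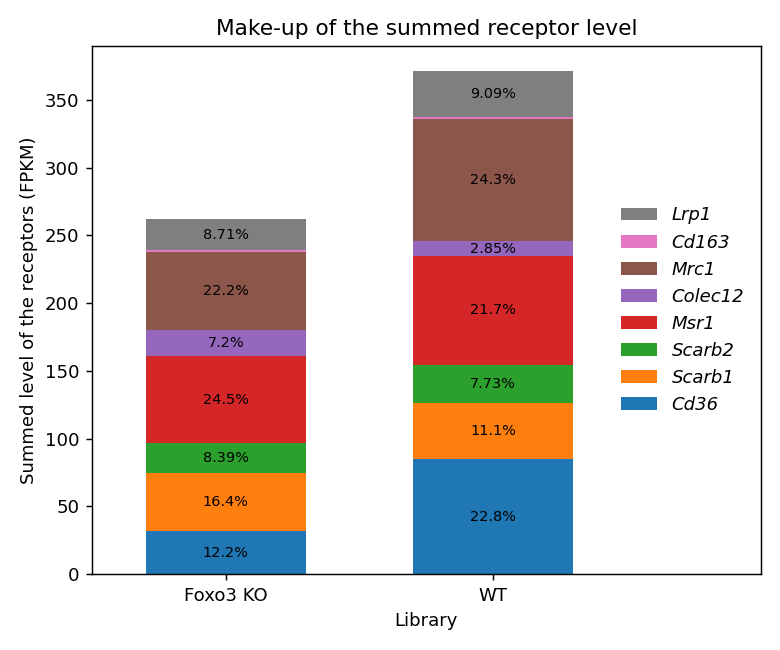
Summed level of the 8 receptor genes in FPKM (vertical axis, from 0) in the Foxo3 KO and the WT library, with coloured segments for each gene and its share of the sum in percent (Cd163, under 1 percent, carries no label). The KO sum of 261.9 FPKM lies below the WT sum of 371.2 FPKM, and the Cd36 segment is the one that differs most.

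Related genes were described by 20 lists put together with earlier results of these data known, each by its measured genes. The counts of every list stand beside 42.4% lower and 57.6% higher among all measured genes. Of other scavenger receptors, 5 of 6 were lower, with a median log2 ratio of -0.14 and 0 past 2-fold. Stab1, stabilin-1, which clears modified LDL and matrix fragments, stood at 94.8 FPKM in the KO and 150.8 FPKM in the WT library (log2 ratio -0.66). Cd44, the hyaluronan receptor, stood at 101.2 and 122.8 FPKM in the KO and WT library, and Cxcl16, a membrane chemokine that binds oxidised lipids, had a log2 ratio of -0.16. The class A receptor gene Marco, singled out after its values were seen, was under 1 FPKM in both libraries, at 0.441 FPKM in the KO and 0.648 FPKM in the WT library.

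Of 15 other C-type lectins and mannose-binding receptors, 10 had a positive and 5 a negative log2 ratio, beside 57.6% positive among all measured genes. The median was 0.13, and 0.03 with a minimum of 10 FPKM. Clec4d, a receptor for fungal and mycobacterial glycolipids, stood at 75.4 FPKM in the KO and 112.3 FPKM in the WT library (-0.57). Clec7a, the beta-glucan receptor dectin-1, stood at 26.7 and 33.4 FPKM in the KO and WT library (-0.32), and the inhibitory receptor gene Clec4a2 at 160.0 and 141.1 FPKM (0.18). None of the 15 passed 2-fold.

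In the LDL receptor family and among LRP1 partners, 11 of 15 were lower, with a median of -0.08. Dab2, an endocytic adaptor that binds the tails of these receptors, stood at 49.5 FPKM in the KO and 72.9 FPKM in the WT library (-0.55). Lrp12, another receptor of this family, had a log2 ratio of -0.26. Plaur, the urokinase receptor that LRP1 internalises, had the lowest ratio of this list, -0.88, at 3.56 FPKM in the KO and 7.40 FPKM in the WT library. It was singled out after its values were seen.

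Of ligands of these or other uptake receptors, 15 of 17 were lower and 0 passed 2-fold, with a median of -0.24. Apoe, a lipoprotein ligand of LRP1 and SR-B1, stood at 981.5 FPKM in the KO and 1329 FPKM in the WT library (-0.44). Lpl, lipoprotein lipase, stood at 191.6 FPKM in the KO and 266.7 FPKM in the WT library (-0.47), and Gas6, which bridges dying cells to receptor kinases, had a log2 ratio of -0.42. Of 12 receptors and partners for dying cells, 10 were lower and the median was -0.18. Mertk, a receptor kinase for Gas6, stood at 10.9 FPKM in the KO and 17.1 FPKM in the WT library (-0.61), while Cd300a and Itgb3 had log2 ratios of -0.32 and -0.28.

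Of 26 lipid handling genes, 17 were lower, the median was -0.17 and 0 passed 2-fold. Fabp4, a fatty acid carrier, had the lowest ratio of the list, -0.95, at 6.82 FPKM in the KO and 14.1 FPKM in the WT library. Lipa, the lysosomal lipase that frees cholesterol from lipoproteins taken up, stood at 296.1 FPKM in the KO and 428.7 FPKM in the WT library (-0.53). Of regulators of receptor expression, 10 of 18 were lower, with a median of -0.03. Rxra, the retinoid X receptor that pairs with PPARs, stood at 11.1 FPKM in the KO and 14.7 FPKM in the WT library (-0.37), and Cebpa and Maf had log2 ratios of -0.28 and -0.27. Pparg, the nuclear receptor known to activate Cd36 and Fabp4, had the lowest ratio of that list, -0.63. It stood at 3.21 FPKM in the KO and 5.51 FPKM in the WT library, and was singled out after its values were seen. The regulators named here were all lower, while 8 of the 18 were higher. Whether Pparg bears on the Cd36 or Fabp4 difference was not tested.

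Genes of alternative macrophage activation, the state in which Mrc1 is known to be high, split 6 higher to 6 lower, with a median of 0.05. F13a1, a coagulation factor gene, stood at 20.5 FPKM in the KO and 13.3 FPKM in the WT library (0.58), Cd200r1 had a log2 ratio of -0.37 and Chi3l3 one of 0.25. Of 16 genes of the lysosomal membrane and LIMP-2 cargo, 10 were lower and the median was -0.05. Psap, Slc17a5 and Lamp1 had log2 ratios from -0.27 to -0.25. Of haem and iron genes beside Cd163, 10 of 13 were lower, with a median of -0.25, and Slc40a1, the iron exporter, was the 1 gene past 2-fold, with a log2 ratio of -1.38. Hmox1, haem oxygenase, had a log2 ratio of -0.92, and Blvrb, a biliverdin reductase, one of -0.49. Shedding and endocytosis genes split 9 higher to 10 lower around a median of 0.00, with Furin at -0.31, the sheddase Mmp14 at 0.20 and the clathrin adaptor Ap2a2 at -0.18.

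**Figure D4:**
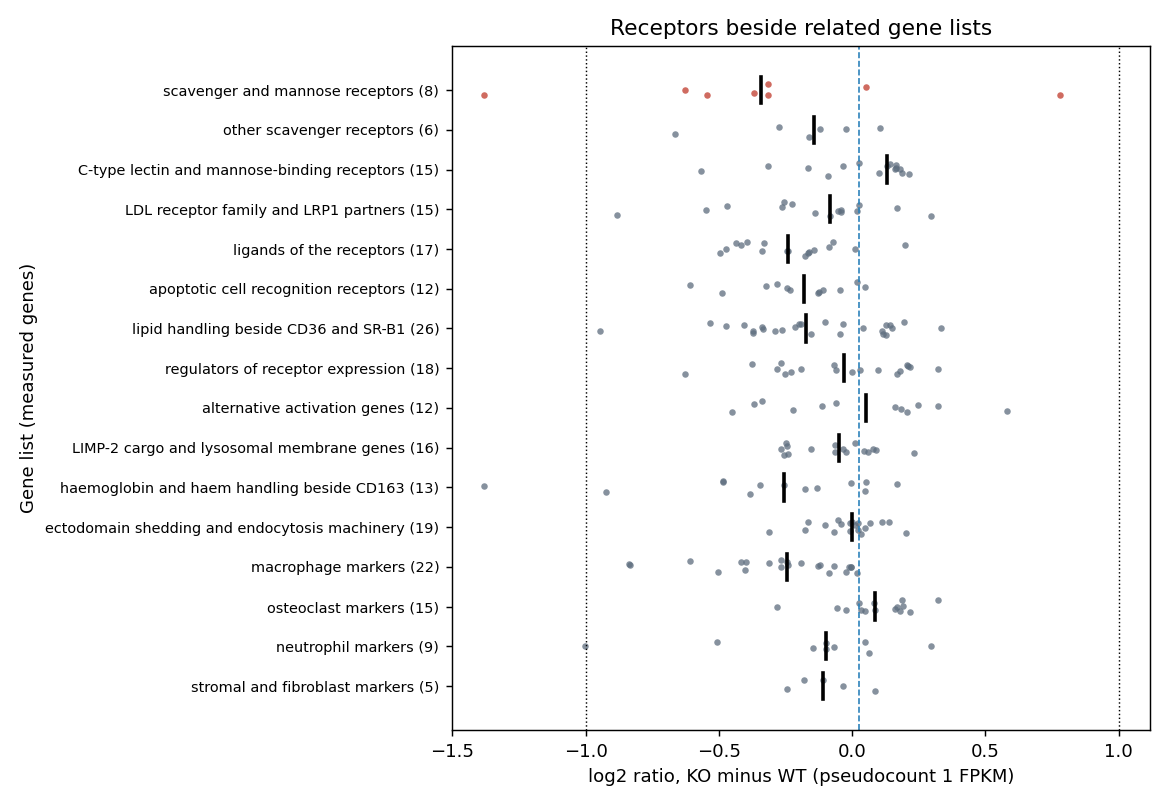
Log2 ratio of KO minus WT (horizontal axis) for each measured gene of the receptor set (red) and of the related and cell type lists with 5 or more measured genes (grey), with black bars for list medians, a dashed line at the median of all measured genes (0.03) and dotted lines at 2-fold. The receptor median of -0.34 lies left of the dashed line, and the C-type lectin median of 0.13, which is 0.03 with a minimum of 10 FPKM, lies right of it.

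Cd36, Mrc1 and Msr1 are also used as macrophage markers, and a wider list of such markers also lay low in the KO library: 21 of 22 measured genes were lower, at a median log2 ratio of -0.24. Their summed level was 10955 FPKM in the KO and 13367 FPKM in the WT library, with Lyz2 at 5674 and 7501 FPKM and Cd68 at 1546 and 1573 FPKM, and Timd4 was listed at 0 in both. Osteoclast markers were higher in 12 of 15 cases, with a median of 0.09, led by Acp5 at 8636 FPKM in the KO and 7737 FPKM in the WT library and Ctsk at 6862 and 6106 FPKM. Among all measured genes, 42.4% were lower and 57.6% higher, with a median of 0.03. In bulk samples, fewer cells of a type and less RNA per cell cannot be told apart.

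Several other cell types also carry Cd36, Scarb1 or Colec12. Of megakaryocyte and erythroid markers, 1 of 9 listed genes was measured, Pf4, at 26.2 FPKM in the KO and 55.7 FPKM in the WT library (-1.06), beside a summed level of 27.1 and 57.2 FPKM. Ppbp was at 0.267 FPKM in the KO and 0.698 FPKM in the WT library, and Gp1bb and Hbb-b1 were listed at 0 in both. Of 8 adipocyte markers Fabp4 alone was measured, within a sum of 6.83 FPKM in the KO and 14.1 FPKM in the WT library. Plin4 was at 0.0041 FPKM in the KO and 0.0114 FPKM in the WT library, and Adipoq, Plin1, Cidec, Lep, Cfd and Retn were listed at 0 in both. Endothelial markers, with 2 of 11 measured and both lower, summed to 7.97 FPKM in the KO and 11.4 FPKM in the WT library, with Eng at 3.63 and 6.17 FPKM, Vwf at 1.65 and 2.35 FPKM and Emcn at 0 in both. The part of megakaryocytes and endothelial cells in the Cd36 difference was not tested.

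Stromal and fibroblast markers were lower in 4 of 5 measured cases, with a median of -0.11. They summed to 13.1 FPKM in the KO and 14.6 FPKM in the WT library, where Colec12 stood at 18.9 and 10.6 FPKM. The part of stromal cells in the Colec12 difference was not tested. Col1a1 was at 3.24 FPKM in the KO and 3.35 FPKM in the WT library, Sparc at 3.01 and 3.33 FPKM, and Lum at 0 in both. Neutrophil markers were lower in 6 of 9 cases (median -0.10), with S100a8 at 67.0 and 70.2 FPKM and S100a9 at 55.4 and 53.6 FPKM in the KO and WT library. Dendritic markers had 1 measured gene higher and 1 lower, Zbtb46 at 1.48 and 1.14 FPKM and Kmo at 0.810 and 1.18 FPKM. Of 11 lymphoid markers Cd4 alone was measured, at 6.27 FPKM in the KO and 6.77 FPKM in the WT library, with Cd79b next at 0.898 and 0.851 FPKM.

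Among genes at 10 FPKM or more in 1 library, those nearest to Cd36 in log2 ratio were Slc40a1 (-1.38), Cnrip1 (-1.49) and Atf3 (-1.18). Slc40a1, the iron exporter, stood at 22.4 FPKM in the KO and 59.9 FPKM in the WT library, beside 31.9 and 84.7 FPKM for Cd36. Those nearest to Colec12 were Mpp7 (0.76), the fatty acid desaturase gene Scd2 (0.74) and Ifitm1 (0.85). Scd2 stood at 62.4 FPKM in the KO and 37.0 FPKM in the WT library, and Mpp7 at 11.3 and 6.26 FPKM. The likeness rests on 1 ratio between 2 libraries.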

How the data were processed

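Poly-A RNA of 1 Foxo3 KO and 1 WT culture was sequenced after library construction with a TruSeq kit, per the labels' protocols. The deposited values were read as FPKM from their form, since no header or label names the unit. TopHat, edgeR and mm10 are named in the submitters' processing notes without versions or roles, and the sources used here name no quantifier, annotation or scaling. Every value carries 0.000001, read as an added constant and subtracted, so a gene at the constant is listed at 0. Such a 0 can also be a failed estimate.

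The members and lists were chosen with earlier results of these data known. With 1 library per group no test was run: log2 ratios (pseudocount 1 FPKM, minimum 1 FPKM in 1 library) and a 2-fold rule took their place. The 20 lists held 325 entries, of which 316 were found, some through a RefSeq synonym. Genes were named by a rule: the 3 genes of each pathway list with the largest absolute ratio at 10 FPKM or more, the 2 most abundant of each cell type list, and the 3 nearest in ratio to Cd36 and to Colec12. Others are marked as chosen after their values were seen. A few genes of the lists are not reported here.

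Depth was estimated after the values were seen. It used 1212 (KO) and 1095 (WT) genes under 0.3 FPKM with 1 transcript of 1000 bases or more. FPKM times length in kilobases piled up at 0.0268 in the KO and 0.0383 in the WT library, taken as the worth of 1 read. A minority of the genes lay close to these values, 158 in the KO and 179 in the WT library. The ratio of the 2 values, 1.43, lies near the 1.40 read from 1657 genes low in both libraries. Reads behind a gene are approximate, depend on the transcript length assumed, and cover counting error only. Gene models are GENCODE M21 on mm10, and promoters are RefSeq. The steps were tested on simulated data. Python 3.11.15, numpy 2.4.6, pandas 2.3.3 and matplotlib 3.10.9 were used.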

Additional observations from a re-analysis of the deposited data

How the results depend on the processing

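Alternatives were pseudocounts of 0.25 and 5, trimmed-mean scaling, centring on the median gene, no minimum, a minimum of 10 FPKM and thresholds of 1.5-fold and 4-fold. The directions of all 8 receptors held wherever they were measured, and Cd163 dropped out at 10 FPKM. A pseudocount or a minimum cannot change a direction, so only trimmed-mean scaling and centring could have done so. Of 47 recomputed receptor ratios 46 stayed within the spread of genes of like level, and Colec12 moved to 0.62 with a pseudocount of 5. The settings of the minimum leave every ratio unchanged by construction, and centring shifts all ratios alike, so the 46 are no measure of robustness. At 1.5-fold, 2 receptors were lower and 1 higher, and at 4-fold 0 were lower. Genes lower by the 2-fold rule numbered 39 at a pseudocount of 0.25 and 6 at a pseudocount of 5, and by the other thresholds 94 (1.5-fold) and 2 (4-fold). Genes higher numbered 5 at a pseudocount of 5 and also 5 above a minimum of 10 FPKM, and by the other thresholds 41 (1.5-fold) and 2 (4-fold). The settings produce these counts by their construction. Among list medians 2 of 89 changed sign. Regulators of receptor expression went to 0.0148 with no minimum, and alternative activation genes to -0.0595 with a minimum of 10 FPKM. A minimum leaves each ratio as it is, so only the genes counted in these lists changed. Ratios between class B receptors within a library cannot change on scaling to TPM, because each library is divided by its own sum. No paired analysis was possible because there is 1 library of each genotype, so none could be left out either.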
